A study of Mus musculus with 9 samples.

Results

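A set of 10 mouse genes that encode enzymes removing superoxide and peroxides was followed in RNA sequencing of whole eyeballs: the superoxide dismutases Sod1, Sod2 and Sod3, catalase (Cat), the glutathione peroxidases Gpx1, Gpx3 and Gpx4, and the peroxiredoxins Prdx1, Prdx5 and Prdx6. They were chosen by symbol, and all 10 were found among the 22587 genes of the tables and all 10 passed the filter on low counts, which left 21287 genes. The eyes came from female WT BALB/C mice, an albino strain, with tissue age given as postnatal day 56. In the T.chuii group, mice were injected intraperitoneally with scopolamine and were fed the green alga Tetraselmis chuii at 300 mg/kg. In the DES group, mice had the scopolamine injection and water, and in the CON group they had water with no injection listed. Treatment ran for 2 weeks from 6 weeks of age, 15 mice were obtained, and 3 libraries stand for each group. The labels do not say whether a library is 1 eye, 1 animal or a pool, so the p-values below measure only the spread between these libraries, which may be technical.

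Superoxide leaks from mitochondrial respiration and is made by NADPH oxidases. Superoxide dismutases turn it into hydrogen peroxide, and catalase, glutathione peroxidases and peroxiredoxins then remove the peroxide. The glutathione peroxidases and peroxiredoxins draw on glutathione or thioredoxin for this. The cornea and retina meet light and high oxygen flux, and these enzymes are well known there and in the lens. Scopolamine blocks muscarinic receptors and lowers tear secretion, and the comparisons ask how eyes of injected mice differ from eyes of uninjected mice and whether the alga given with it is accompanied by other levels.

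The genes lie on 10 different chromosomes, given here on GRCm38.p6, the assembly of mm10. Sod1 is at chr16:90220762-90226333, Sod2 at chr17:13007839-13018119, Sod3 at chr5:52363804-52369738 and Cat at chr2:103453904-103485153. Gpx1 is at chr9:108339080-108340342, Gpx3 at chr11:54902854-54910387 and Gpx4 at chr10:80047166-80056439. Prdx1 is at chr4:116685599-116700000, Prdx5 at chr19:6906697-6910106 and Prdx6 at chr1:161240112-161251210. Prdx1 overlaps the long non-coding gene AV051173, which had 17 to 33 reads, and Prdx5 overlaps Trmt112, which had 2120 to 3650 reads. No source here states whether counting used strand. How reads in the overlaps were divided is therefore unknown, and this matters more for Prdx5, whose own count was 13668 to 34074 reads. The tables also list Gpx4-ps2, a pseudogene copy of Gpx4, with 4408 to 7457 reads beside the 23075 to 45857 of Gpx4, so the division of reads between these copies is uncertain.

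Promoters of 8 of the 10 genes were matched in RefSeq (GRCm38.p6), as windows of 250 bases before to 50 bases after a start site. The core of the antioxidant response element, the site of the stress factor Nrf2 (TGACNNNGC, or GCNNNGTCA on the other strand), was searched in both orientations. These letters were found in windows of Prdx1 and Sod1, and in 12.4% of the 32851 promoter windows of the table. In Prdx1 the match begins at position -133 from the start site and shares its last 7 letters with the AP-1 motif TGANTCA, which 7.81% of all windows hold and which occurs a second time in this window, at position -237. In Sod1 the match begins at position -56. The bases upstream of these 2 starts are shown because they are the windows among the members in which the core was found, with the match in capitals, both on the plus strand. Prdx1 covers chr4:116685349-116685598 and Sod1 covers chr16:90220512-90220761.
Prdx1: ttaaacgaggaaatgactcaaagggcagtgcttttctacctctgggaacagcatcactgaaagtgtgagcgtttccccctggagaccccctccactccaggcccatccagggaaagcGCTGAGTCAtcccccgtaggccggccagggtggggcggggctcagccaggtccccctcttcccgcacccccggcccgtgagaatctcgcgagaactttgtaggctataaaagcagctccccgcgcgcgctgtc
Sod1: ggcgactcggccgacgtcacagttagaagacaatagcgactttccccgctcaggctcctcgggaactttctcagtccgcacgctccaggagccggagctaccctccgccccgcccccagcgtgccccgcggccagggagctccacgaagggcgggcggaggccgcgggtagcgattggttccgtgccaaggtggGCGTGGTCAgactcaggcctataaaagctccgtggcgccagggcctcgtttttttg
A match of letters is a description and is not evidence that a factor binds there.

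The libraries held 39.1 to 64.6 M reads in the tables. They differed in tissue makeup, read from marker lists, and 3 libraries stood apart. The ratio of reads of 14 corneal epithelium markers to reads of 15 rod markers was 4.02, 0.329 and 0.466 in the T.chuii libraries 1 to 3, 2.59, 0.446 and 0.655 in the DES libraries, and 0.715, 3.95 and 0.856 in the CON libraries. T.chuii 1, DES 1 and CON 2, 1 in each group, are called cornea-rich below, but they were rod-poor as well. Rod markers held 1.10, 1.94 and 1.94% of reads in these libraries and 4.05 to 5.47% in the other 6. Corneal epithelium markers held 4.44, 5.04 and 7.67% against 1.33 to 3.64%. Lens markers, of which 11 of the 16 listed were in the tables, held 1.24 to 6.23% of reads in T.chuii libraries, 0.0432 to 4.25% in DES libraries and 0.0241 to 0.0311% in CON libraries. Fast skeletal muscle markers (14 of 14) held 0.394 to 1.67%, 0.167 to 0.871% and 0.0834 to 0.294% in the T.chuii, DES and CON libraries. Adipocyte markers (4 of 8) held 0.00907 to 0.143%, 0.00148 to 0.00405% and 0.00057 to 0.0035% in the same order. The smallest count in the tables was 1, so no marker in them was at 0 in any library. Listed markers that are absent have no value here, and the shares cover only markers with a count in every library. In bulk tissue, fewer cells of a type and less RNA per cell cannot be told apart.

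Compared per transcript length, the peroxide-removing enzymes other than catalase stood well above catalase and the dismutases. Levels below are FPKM, fragments scaled to transcript length and to library size, as deposited. Gpx4 came first with a mean of 788 ± 132 FPKM, followed by Prdx1 with 569 ± 143, Prdx6 with 481, Gpx3 with 398 ± 165, Gpx1 with 373 ± 80.7 and Prdx5 with 299 ± 67.7 (mean ± SD over all 9 libraries). Sod1 then had 87.5 ± 21.5 FPKM, Sod2 43.6 ± 9.59, Sod3 38.2 ± 21.7 and Cat 32.5 ± 4.84. Among all genes of the tables these levels took rank 67 for Gpx4, rank 99 for Prdx1, rank 1050 for Sod1 and rank 2690 for Cat. The step from Prdx5 to Sod1 held in 9 of 9 libraries, and so did those from Gpx4 to Prdx1, from Gpx1 to Prdx5 and from Sod1 to Sod2. The order of Prdx1 over Prdx6 and of Prdx6 over Gpx3 held in 7 of 9 libraries each. Gpx3 lay above Gpx1 in only 5 of 9 libraries, and Sod3 above Cat in 5 of 9, so these neighbours did not differ beyond their spread.

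**Figure D1:**
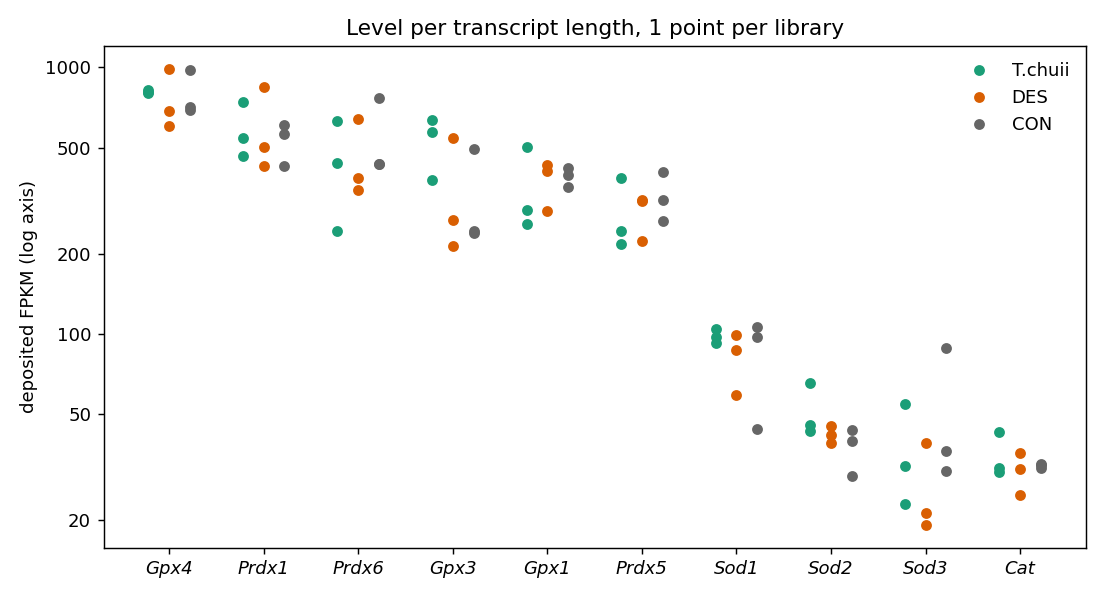
Deposited FPKM (log axis) of the 10 genes in order of their mean, 1 point per library, with the T.chuii, DES and CON libraries side by side. The 6 leading genes lie between 213 and 989 FPKM in every library, and Sod1, Sod2, Sod3 and Cat lie between 19.2 and 106 FPKM.

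The dismutases were compared between groups in CPM, the read counts scaled to library size with trimmed-mean (TMM) factors. Sod1, the copper and zinc enzyme of the cytosol, had 68.3, 68.6 and 65.5 CPM in T.chuii libraries, 42.0, 51.2 and 74.9 CPM in DES libraries and 59.8, 31.9 and 66.2 CPM in CON libraries. Its T.chuii values lay close together, with an SD of 1.7 CPM, and inside the range of the DES values but partly above the highest CON value. The log2 fold change (limma-voom, ± standard error) was 0.43 ± 0.30 for T.chuii vs CON, 0.31 ± 0.30 for T.chuii vs DES and 0.12 ± 0.30 for DES vs CON. Without CON 2 the T.chuii vs CON value was 0.10, and without DES 1 the T.chuii vs DES value was 0.12. Sod2, the manganese enzyme of mitochondria, had 292, 182 and 172 CPM in T.chuii libraries, 178, 137 and 204 CPM in DES libraries and 160, 128 and 149 CPM in CON libraries. Every T.chuii library was above every CON library for Sod2, while DES overlapped with both. The difference T.chuii vs CON was 0.53 ± 0.26 (95% interval -0.04 to 1.10, unadjusted p = 0.0647, limma-voom adjusted p = 0.986), so it did not pass the test. Without T.chuii 1, the highest library, it was 0.29, and in the 6 libraries other than the cornea-rich ones it was 0.18. Markers of other tissues also separated the T.chuii and CON groups: 11 of 11 lens markers, 12 of 14 muscle markers and 3 of 4 adipocyte markers did not overlap and were higher in T.chuii. Their part in the Sod2 values was not tested.

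Sod3, the secreted dismutase that binds to extracellular matrix, varied most of the 10 genes. It had 129, 72.0 and 46.2 CPM in T.chuii libraries, 89.1, 40.1 and 46.5 CPM in DES libraries and 60.4, 205 and 72.3 CPM in CON libraries. The highest library of each group was the cornea-rich one, and the groups overlapped. DES vs CON was -0.80 ± 0.51 (unadjusted p = 0.146, limma-voom adjusted p = 1, 95% interval -1.94 to 0.33), and without CON 2 it was -0.26. T.chuii vs CON was -0.35 ± 0.51 and turned to 0.20 without CON 2, while T.chuii vs DES was 0.46 ± 0.51 and 0.08 without T.chuii 1. Of 10 keratocyte and sclera markers, 9 had fold changes below 0 in DES vs CON and 1 above, with a median of -0.55. Groups did not overlap for 3 of them, beside 3.65% of all genes, and 0 passed the test. The part of these cells in the Sod3 values was not tested. Cat, the haem enzyme of peroxisomes, varied least. It had 128, 85.7 and 79.0 CPM in T.chuii libraries, 88.6, 84.0 and 75.2 CPM in DES libraries and 79.5, 93.5 and 78.2 CPM in CON libraries. Apart from T.chuii 1, its values stayed between 75.2 and 93.5 CPM. DES vs CON was -0.02 ± 0.22 with a 95% interval of -0.51 to 0.47.

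**Figure D2:**
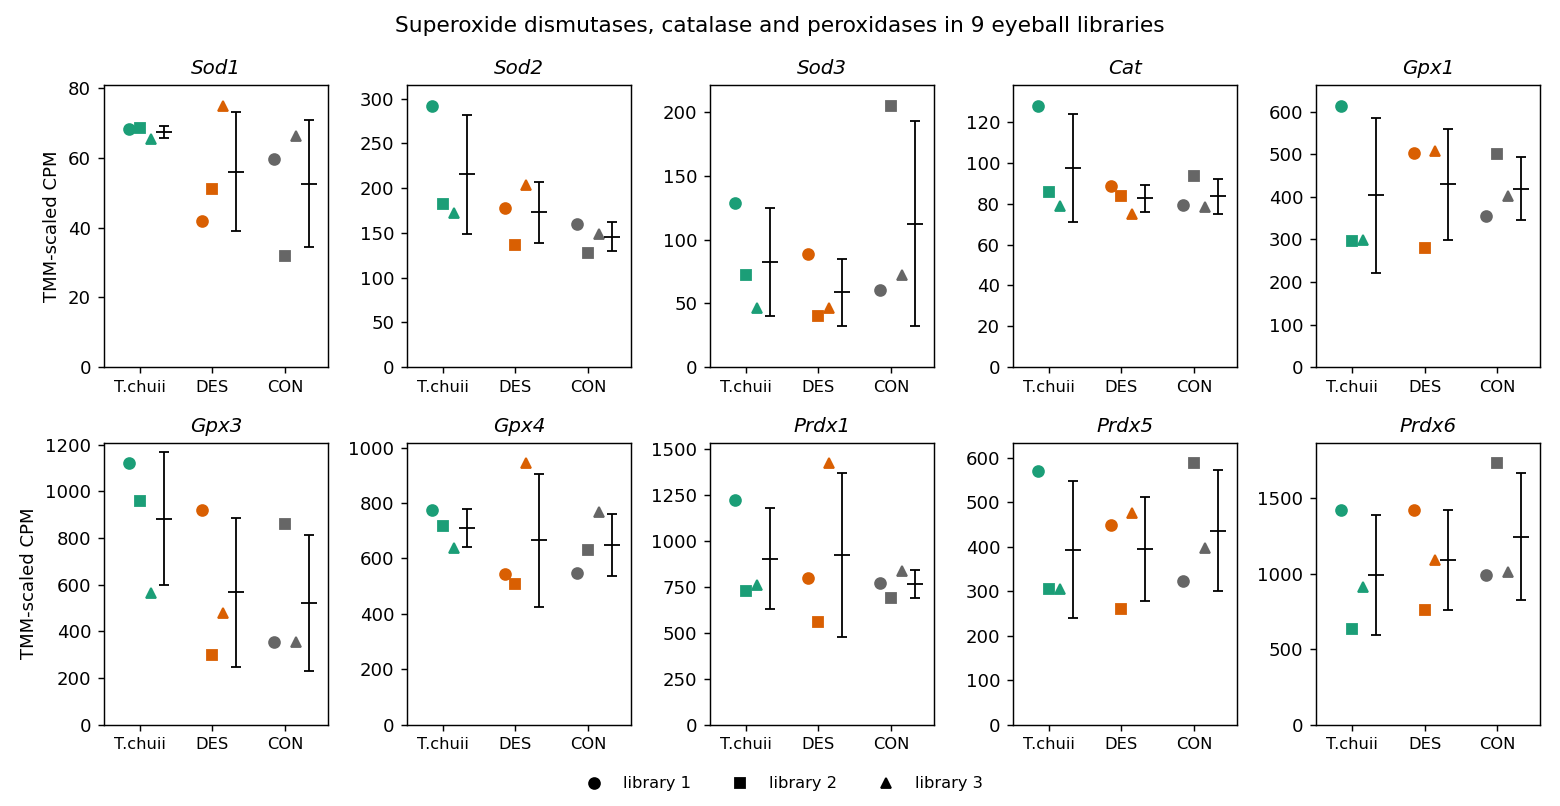
TMM-scaled CPM of each gene in the 9 libraries, with T.chuii, DES and CON from left to right, symbols for the library number and bars for mean ± SD (n = 3). Sod2 is the gene whose T.chuii values (172 to 292) all lie above its CON values (128 to 160).

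Among the glutathione peroxidases, Gpx3 had the largest difference of means. Gpx3 is a secreted selenoprotein found in plasma. It had 1120, 961 and 566 CPM in T.chuii libraries, 922, 299 and 481 CPM in DES libraries and 355, 859 and 355 CPM in CON libraries. The T.chuii values were above 2 of 3 libraries in DES and in CON, and in each of those groups the library that reached them was the cornea-rich one. T.chuii vs CON was 0.84 ± 0.48 (unadjusted p = 0.105, limma-voom adjusted p = 0.986, 95% interval -0.21 to 1.90), and T.chuii vs DES was 0.73 ± 0.48 (adjusted p = 1). Leaving out 1 library brought T.chuii vs CON down to 0.62 (without CON 1) and up to 1.26 (without CON 2), and T.chuii vs DES down to 0.40 (without DES 2) and up to 1.16 (without DES 1). With DES and T.chuii libraries paired by title number, a pairing that no label states, Gpx3 was higher in T.chuii in 3 of 3 pairs. In this setting, chosen after seeing the data, the T.chuii vs DES difference was 0.75 ± 0.29 (limma-voom adjusted p = 0.73). In the 6 other libraries, where T.chuii had 961 and 566 CPM against 355 and 355 CPM in CON, the difference was 1.04 ± 0.31 (limma-voom adjusted p = 0.49). With the corneal to rod ratio as a covariate it was 1.07 ± 0.30 (adjusted p = 0.236), and over all alternatives the smallest adjusted p was 0.22, so it passed none of them. Adipocyte marker shares in the T.chuii libraries were 0.143%, 0.0343% and 0.00907%, in the same order as Gpx3 there, and all above those of the other groups. Fast skeletal muscle markers had that order too, with 1.67%, 0.873% and 0.394%. In DES libraries 1 to 3 the adipocyte shares were 0.00404%, 0.00148% and 0.00405% and the muscle shares 0.871%, 0.282% and 0.167%, neither in the order of Gpx3. CON 2 had the highest Gpx3 of its group and the lowest adipocyte and muscle shares, 0.00057% and 0.0834%. An order among 3 libraries cannot tell where the Gpx3 reads come from. The part of fat, muscle or lens tissue in the Gpx3 values was not tested.

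Gpx1, the selenoprotein of cytosol and mitochondria that reduces hydrogen peroxide, had 614, 297 and 299 CPM in T.chuii libraries, 502, 279 and 507 CPM in DES libraries and 356, 501 and 401 CPM in CON libraries. The groups overlapped, and its 3 fold changes lay between -0.13 and 0.01. Gpx4, the selenoprotein that reduces lipid hydroperoxides in membranes and holds back ferroptosis, had 774, 717 and 639 CPM in T.chuii libraries, 543, 509 and 943 CPM in DES libraries and 547, 632 and 769 CPM in CON libraries. All T.chuii values fell inside the DES range, and the largest of its fold changes was 0.14 ± 0.28, in T.chuii vs CON. For Gpx4 the 95% intervals covered differences down to -0.61 and up to 0.76.

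Prdx1, a cytosolic peroxiredoxin recharged by thioredoxin, had 1220, 725 and 762 CPM in T.chuii libraries, 796, 558 and 1420 CPM in DES libraries and 770, 687 and 838 CPM in CON libraries. A single library stood high in each injected group, T.chuii 1 and DES 3, and the groups overlapped. Prdx5, found in mitochondria, peroxisomes and cytosol, had 571, 305 and 305 CPM in T.chuii libraries, 449, 261 and 475 CPM in DES libraries and 324, 587 and 396 CPM in CON libraries. Prdx6, which uses glutathione and also has phospholipase activity, had 1420, 637 and 909 CPM in T.chuii libraries, 1420, 760 and 1090 CPM in DES libraries and 992, 1730 and 1010 CPM in CON libraries. For Prdx6 the cornea-rich library was the highest in each group. T.chuii vs CON was -0.35 ± 0.37 for Prdx6, -0.16 ± 0.35 for Prdx5 and 0.21 ± 0.35 for Prdx1, and each interval included 0.

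None of the 10 genes passed the limma-voom test at an adjusted p of 0.05 in any of the 3 comparisons. Nor did any other gene: 0% of 21287 were called in T.chuii vs CON, 0% in T.chuii vs DES and 0% in DES vs CON. At an unadjusted p under 0.05 there were 912, 233 and 235 genes in those comparisons (4.28%, 1.09% and 1.1% of all genes), with 0 members in each. A test on the deposited FPKM values (limma-trend) called 0 genes as well. With the title number as a replicate block and only the DES and T.chuii libraries in the fit, 2 genes were called in T.chuii vs DES, 0 of them members. Of the 10 members, 1 had groups that did not overlap in T.chuii vs CON (Sod2, against 8.42% of all genes), 0 in T.chuii vs DES (4.8% of all genes) and 0 in DES vs CON (3.65% of all genes). Fold changes were above 0 for 6 members in T.chuii vs CON, 7 in T.chuii vs DES and 6 in DES vs CON, beside 44.6%, 45.1% and 47.6% of all genes. Members were correlated over the libraries (below), so their signs are not independent. The median fold change of the members was 0.17 in T.chuii vs CON, 0.17 in T.chuii vs DES and 0.01 in DES vs CON, and that of all genes was -0.04, -0.03 and -0.02. These comparisons share libraries in pairs, so they are not independent of each other. The intervals were wide: differences of 1 log2 unit lay inside them for Gpx3 in all 3 comparisons, and the narrowest, for Cat, spanned about 0.5 to either side of the estimate.

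**Figure D3:**
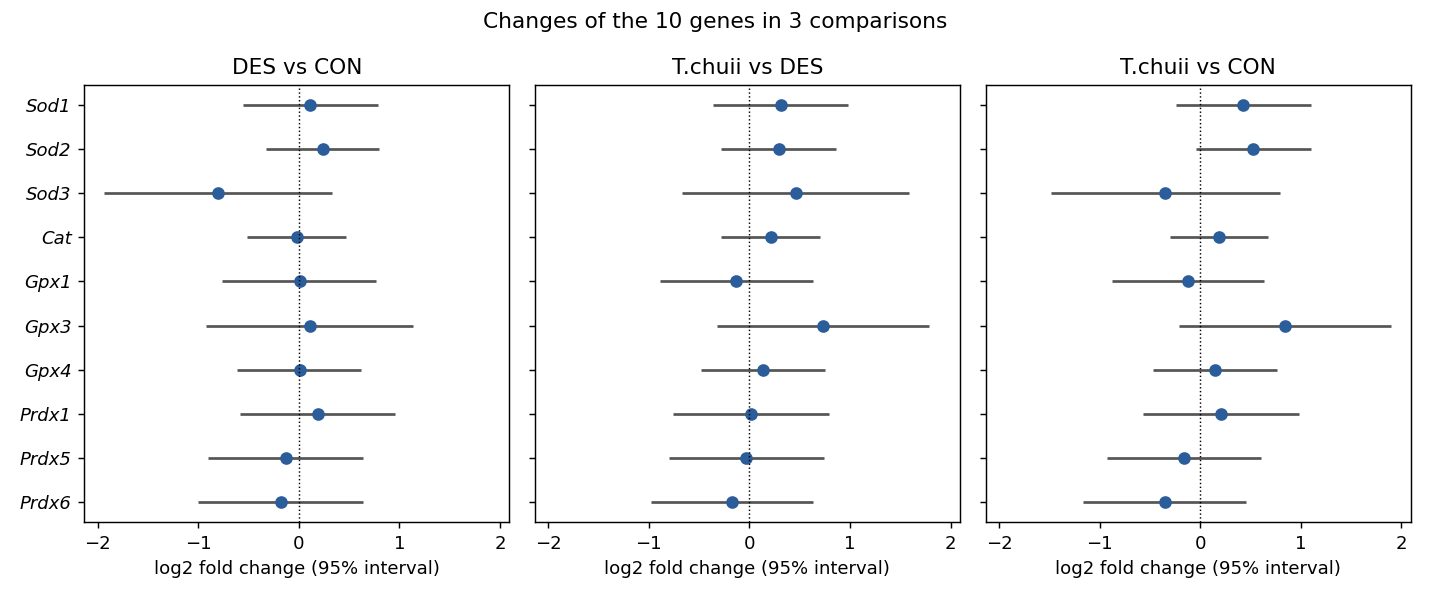
Log2 fold changes of the 10 genes with 95% intervals (limma-voom, 9 libraries) in DES vs CON, T.chuii vs DES and T.chuii vs CON. Every interval includes 0, that of Sod2 in T.chuii vs CON (-0.04 to 1.10) by the smallest margin.

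Levels also differed between the cornea-rich libraries T.chuii 1, DES 1 and CON 2 and the other 6. Sod3 had 89.1 to 205 CPM in these 3 and 40.1 to 72.3 CPM in the other 6. Cat had 88.6 to 128 CPM against 75.2 to 85.7 CPM, and Prdx6 had 1420 to 1730 CPM against 637 to 1090 CPM. These 3 of 10 members were higher in the cornea-rich libraries without overlap, against 13.1% of all genes, and 0 members were lower without overlap, against 13.8% of all genes. Gpx1 (501 to 614 against 279 to 507 CPM), Gpx3 (859 to 1120 against 299 to 961 CPM) and Prdx5 (449 to 587 against 261 to 475 CPM) overlapped in part. No test is given, because these libraries were set apart by a measured ratio of marker genes.

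**Figure D4:**
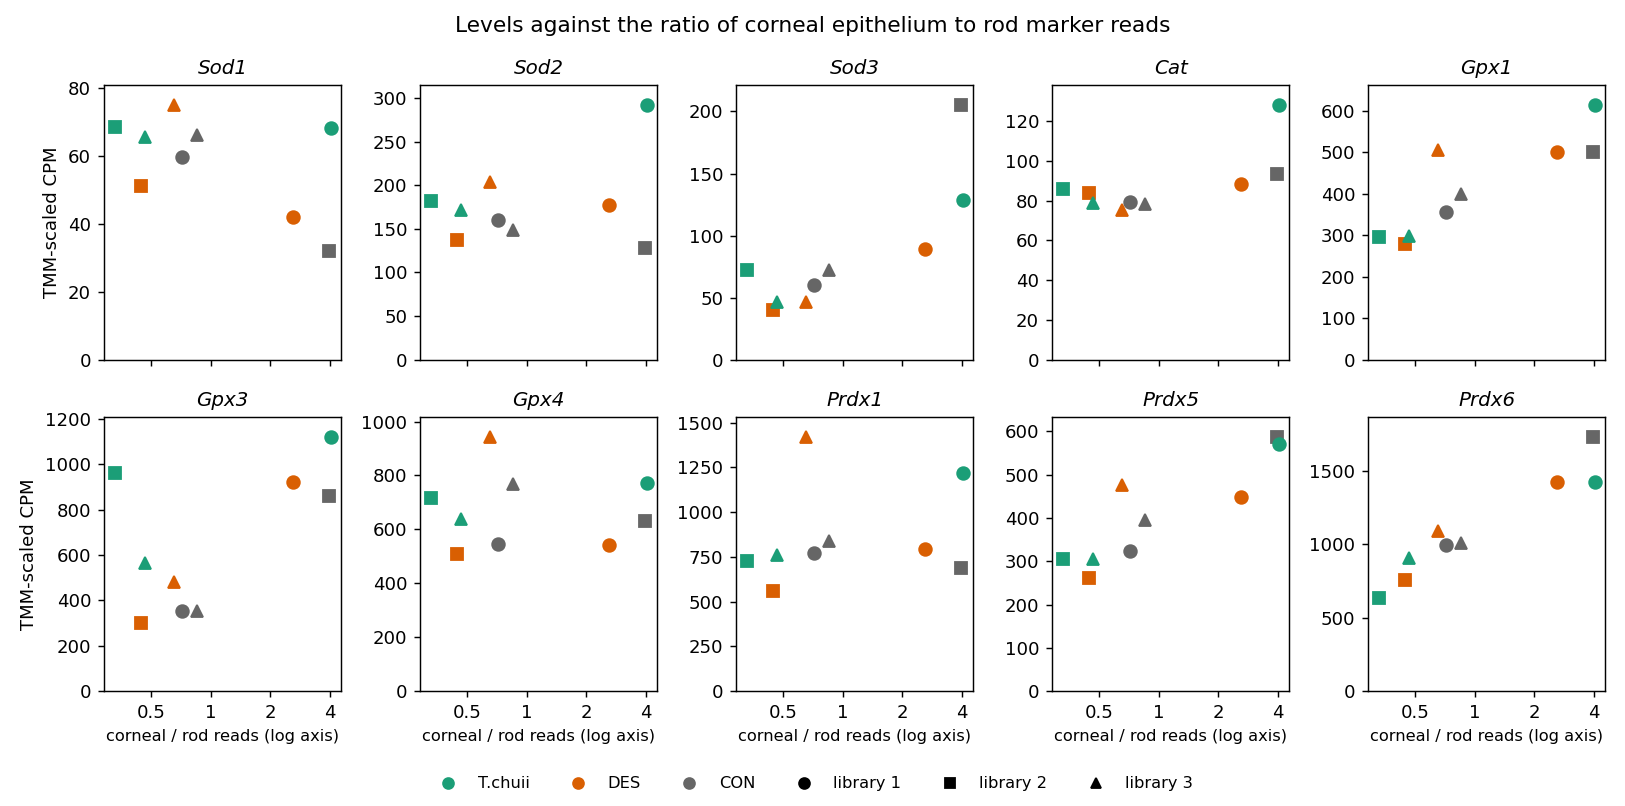
TMM-scaled CPM of each gene against the ratio of corneal epithelium to rod marker reads (log axis), 1 point per library, coloured by group. Prdx6 is highest in the 3 libraries at a ratio above 2, with 1420 to 1730 CPM, and Gpx4 shows no such order, with 543 to 774 CPM in them and 509 to 943 CPM in the other 6.

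The balance of dismutases differed between libraries in the same way. On FPKM values, the ratio of Sod2 to Sod1 was 0.712 in T.chuii 1, 0.706 in DES 1 and 0.667 in CON 2, against 0.374 to 0.453 in the other 6 libraries. Sod3 over Sod1 ran from 0.193 in DES 3 to 2.01 in CON 2, where the secreted dismutase was thus above the cytosolic one. Gpx3 over Gpx1 was 1.25, 2.21 and 1.30 in T.chuii libraries, 1.26, 0.733 and 0.650 in DES libraries and 0.684, 1.18 and 0.606 in CON libraries. Each T.chuii library and each cornea-rich library had more Gpx3 than Gpx1 per length. Gpx4 was above Gpx1 in all 9 libraries, by ratios of 1.39 to 3.13.

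Members moved together to different degrees over the 9 libraries. The correlations that follow are Pearson's r of log2 CPM, given as descriptions, since libraries share depth scaling and tissue makeup. Over the 45 pairs the median r was 0.51. The closest pairs were Gpx1 with Prdx5 (0.96), Prdx5 with Prdx6 (0.89), Gpx1 with Prdx6 (0.86) and Gpx4 with Prdx1 (0.82). Sod1 with Sod3 had the lowest r, -0.58, and the cornea-rich CON 2 had the lowest Sod1 (31.9 CPM) and the highest Sod3 (205 CPM). The r of member pairs was not computed without the cornea-rich libraries. The value therefore does not show that the 2 genes run opposite in the others. The coefficient of variation over the 9 libraries had a median of 22.0% over 4249 genes with a mean CPM of at least 50. Cat (18.1%) and Gpx4 (20.7%) were below this median, and all other members were above it. These had 24.2% for Sod1, 27.5% for Sod2, 28.4% for Gpx1, 29.4% for Prdx5, 31.7% for Prdx6 and 31.9% for Prdx1. Gpx3 had 47.1% and Sod3 62.6%.

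Among 11029 genes with a mean CPM of at least 10, those with the pattern most like a member were named by r over the 9 libraries. Nearest to Prdx6 were Hsdl2 (0.996), Lpar6 (0.99) and Arpc5 (0.989), and Prdx1 was nearest to Polr2h (0.994), Rps23 (0.991) and Rps27 (0.989). For Sod2 they were Mpc1 (0.991), Atp5o (0.987) and Mpc2 (0.986). Sod3 was closest to Cib2 (0.988), Rcn3 (0.984) and Crtap (0.983), and Gpx3 to Mtfr1l (0.967), Alad (0.966) and Pde1a (0.963). Prdx5 had Dnajc4 (0.991), Tspo (0.989) and Cib1 (0.983), and Gpx1 had Cr1l (0.98), Laptm4a (0.98) and Med8 (0.978). Gpx4 had Mrpl20 (0.981), Ift27 (0.977) and Rpl10a (0.972), and Sod1 had Fbxo36 (0.977), Nkiras1 (0.976) and Zcchc17 (0.974). Values were lowest for Cat, with Mcur1 (0.953), Pcca (0.943) and Otud1 (0.943). In the 6 libraries other than the cornea-rich ones, the r of Sod2 with Mpc1 was 0.988. That of Gpx3 was 0.95 with Mtfr1l, 0.93 with Alad and 0.981 with Pde1a. The r of Cat over those 6 was 0.949 with Mcur1, 0.469 with Pcca and 0.295 with Otud1. All these genes were picked by r over 9 libraries that include the 6, so a high r here is not a separate check.

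Prdx6 also differed between libraries in how its count related to its FPKM. The count divided by FPKM and library depth gives the mean transcript length that the deposited values imply, here with depth taken from genes listed with 1 transcript and scaled to the table total of CON 2. For Prdx6, which the tables list with 4 transcripts, this length was 1.99, 2.43 and 2.15 kb in T.chuii libraries, 2.03, 2.43 and 2.44 kb in DES libraries and 2.43, 2.02 and 2.43 kb in CON libraries. The 3 cornea-rich libraries had the shortest values, and T.chuii 3 lay between them and the other 5. The highest was 1.23 times the lowest, and 8.9% of 4123 genes with several transcripts varied at least as much. For the other 9 members the ratio was at most 1.01. GENCODE M21 lists 9 Prdx6 transcripts, of which 2 are protein coding, Prdx6-201 with 959 bases and Prdx6-202 with 2387 bases. Which transcripts carried the reads was not tested.

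**Figure D5:**
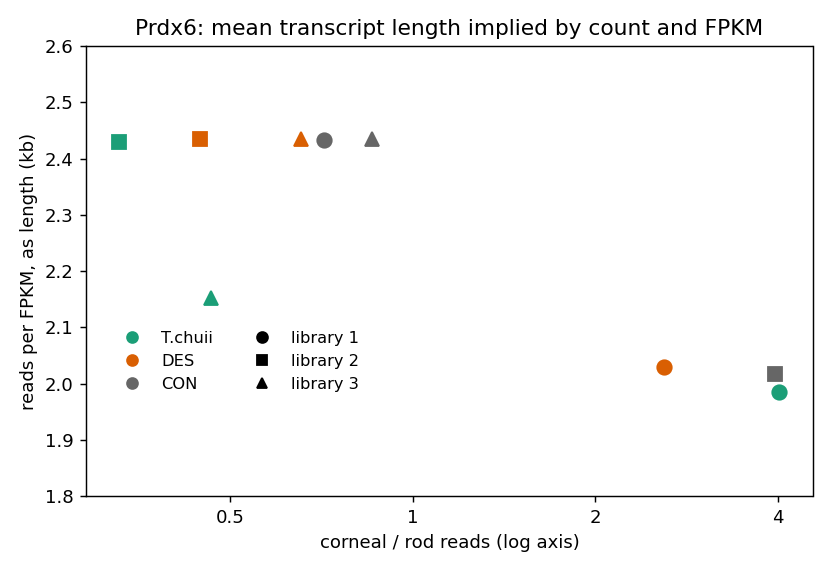
Mean transcript length of Prdx6 implied by the deposited count and FPKM (kb) against the ratio of corneal epithelium to rod marker reads (log axis), 1 point per library, coloured by group. The 3 libraries at ratios above 2 lie at 1.99 to 2.03 kb, T.chuii 3 at 2.15 kb and the other 5 near 2.43 kb. The vertical axis does not start at 0.

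The genes that work beside these enzymes were taken from 6 lists: other peroxide-removing enzymes, the thioredoxin and glutaredoxin system, glutathione synthesis and recycling, selenium supply, sources of superoxide and peroxide, and methionine sulfoxide reductases. Of 70 listed genes, 62 were in the tables and tested, and 0 passed at an adjusted p of 0.05 in any comparison (limma-voom). At an unadjusted p under 0.05 there were 2 in T.chuii vs CON, 0 in T.chuii vs DES and 0 in DES vs CON, beside 4.28%, 1.09% and 1.1% of all genes. Groups did not overlap for 7 of the 62 in T.chuii vs CON, 2 in T.chuii vs DES and 2 in DES vs CON, beside 8.42%, 4.8% and 3.65% of all genes. Fold changes were above 0 for 32, 40 and 23 of the 62 in these comparisons, beside 44.6%, 45.1% and 47.6% of all genes. The median fold changes of the 62 were 0.05, 0.07 and -0.02.

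Slc7a11, the cystine importer that feeds glutathione synthesis, averaged 11.2 ± 2.69 CPM in T.chuii libraries, 7.57 ± 2.47 CPM in DES libraries and 5.63 ± 1.18 CPM in CON libraries (SD, n = 3 each). The T.chuii and CON values did not overlap, and the log2 fold change was 0.96 ± 0.33 for T.chuii vs CON (unadjusted p = 0.014, limma-voom adjusted p = 0.986) and 0.59 ± 0.32 for T.chuii vs DES. Duoxa1, the maturation factor of the peroxide-producing oxidase Duox1, averaged 21 ± 5.14 CPM in T.chuii libraries, 29.3 ± 0.796 CPM in DES libraries and 40.2 ± 18.3 CPM in CON libraries, with a T.chuii vs CON difference of -0.88 ± 0.31 (unadjusted p = 0.0172, limma-voom adjusted p = 0.986). Duox1 itself averaged 6.61 ± 1.11, 7.21 ± 2.43 and 11.4 ± 4.13 CPM in the T.chuii, DES and CON libraries. Its T.chuii and CON values did not overlap either, at -0.76 ± 0.35. Corneal epithelium markers had fold changes below 0 in T.chuii vs CON for 14 of 14 genes, with a median of -0.91 and 0 past the test, and their part in these values was not tested. The other genes among the 3 with the smallest p in a comparison were Lrp2, a receptor for selenoprotein P, at 0.40 ± 0.26 in T.chuii vs DES, and Xdh, a source of superoxide, at -0.56 ± 0.37 and Eefsec, the elongation factor for selenocysteine, at -0.33 ± 0.24, both in DES vs CON.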

How the data were processed

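Eyeball RNA went into Illumina TruSeq stranded libraries, per the labels. The submitters' processing notes name HISAT2 2.1.0 and StringTie 2.1.3b, also Bowtie2 2.3.4.1, Trimmomatic 0.38 and FastQC 0.11.7, and the build mm10, with no settings. The authors deposited 1 table per library with a read count (a whole number, at least 1) and an FPKM value per gene, per the file headers. These are the last cells of a row, and were taken by that place because the transcript field varies in width.

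Library scaling used TMM factors (30% of M and 5% of A trimmed). The filter asked for a CPM worth 10 reads at median depth in 3 or more libraries, and for 15 reads in all. They were tested with limma-voom (limma 3.58.1, R 4.3.3), 3 group means over 9 libraries with 6 residual degrees of freedom, two-sided, with Benjamini-Hochberg adjustment over all 21287 genes. The FPKM alternative used log2(FPKM + 1). Tables and figures were made with Python 3.11.15, pandas 2.3.3 and matplotlib 3.10.9. The code was tested on simulated counts without differences in tissue makeup, which does not show what size of change these libraries could detect. No pair of libraries agreed within sampling noise (lowest chi-square per degree of freedom 35.3).

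Members and lists were chosen with earlier results of these data known. Named genes were all 10 members, the 3 listed pathway genes with the smallest p in each comparison with any past the threshold, and the 3 genes most like each member. Groups and numbers are from the sample titles. The headers inside the tables number the libraries differently, and a title number carries the same header number in none of the 3 pairs of DES and T.chuii libraries. Deviations from group means of same-numbered libraries correlated at 0.63, 0.41 and 0.20 in T.chuii vs DES, at -0.36, -0.42 and 0.34 in T.chuii vs CON and at -0.38, -0.28 and 0.32 in DES vs CON. Every pair was above 0.1 only in T.chuii vs DES. The cornea-rich library is number 1 in both of these groups and number 2 in CON. No label states a pairing, and these correlations cannot tell one from shared tissue makeup.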

Additional observations from a re-analysis of the deposited data

How the results depend on the processing

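No member passed an adjusted p of 0.05 in any of the 520 recomputed member values (limma), the smallest adjusted p being 0.22, for Gpx3 in T.chuii vs CON with sample quality weights. Of the 30 differences (10 members in 3 comparisons), 18 took the other sign in at least 1 setting. Of the 10 with a size of at least 0.25 in the fit of all 9 libraries, 1 did so, Sod3 in T.chuii vs CON. The cause of these changes was not tested.

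For all genes, 0 called in the fit of 9 libraries became, in T.chuii vs CON, 2 with sample quality weights, 12 with only the 2 groups compared and 1 in the 6 libraries other than the cornea-rich ones. In T.chuii vs DES it became 1 in those 6 libraries and, in a setting chosen after seeing the data, 2 with the replicate block and only DES and T.chuii libraries. Leaving out 1 library in turn gave 0 to 17 genes in T.chuii vs CON and 0 to 15 in DES vs CON, in both with the highest count without DES 2. No member was among them. With the replicate block over all 9 libraries, 0 genes were called in each comparison, and Gpx4 in DES vs CON moved to 0.00 (other side of 0).

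The values that took the other sign, by setting, were as follows. With no filter, Gpx1 and Gpx4 in DES vs CON were 0.00, and on FPKM they were -0.07 and -0.08. With quality weights, DES vs CON was 0.06 for Cat, -0.11 for Gpx4 and -0.19 for Sod1, and Prdx1 was -0.07 in both T.chuii comparisons. In the 6 libraries, DES vs CON was -0.01 for Gpx1 and -0.03 for Sod1, T.chuii vs DES was -0.05 for Gpx4 and -0.28 for Prdx1, and T.chuii vs CON was -0.12 for Prdx1. With the corneal to rod ratio as covariate, DES vs CON was 0.06 for Cat, 0.00 for Gpx4 and 0.01 for Prdx5, and T.chuii vs CON was 0.04 for Gpx1 and 0.01 for Prdx5.

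Leaving out 1 library in turn, T.chuii vs CON ran from -0.02 to 0.33 for Cat, -0.47 to 0.12 for Gpx1, -0.04 to 0.41 for Prdx1, -0.46 to 0.08 for Prdx5 and -0.74 to 0.20 for Sod3. T.chuii vs DES ran from -0.47 to 0.08 for Gpx1, -0.26 to 0.40 for Prdx1, -0.32 to 0.16 for Prdx5 and -0.46 to 0.14 for Prdx6. DES vs CON ran from -0.07 to 0.06 for Cat, -0.16 to 0.30 for Gpx1, -0.31 to 0.53 for Gpx3, -0.30 to 0.18 for Gpx4, -0.21 to 0.51 for Prdx1, -0.33 to 0.15 for Prdx5, -0.39 to 0.08 for Prdx6 and -0.21 to 0.32 for Sod1. Among differences that kept their sign, T.chuii vs CON ran from -0.66 to -0.01 for Prdx6 and 0.10 to 0.63 for Sod1, and T.chuii vs DES from 0.01 to 0.35 for Cat, 0.06 to 0.43 for Sod2 and 0.08 to 0.81 for Sod3. Each member had at least 1684 reads in every library.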
